A study of Rattus norvegicus with 16 samples.

Results

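The genes of glutathione, thioredoxin and antioxidant enzymes were followed in livers of male obese Zucker rats kept for 16 weeks on a casein (CAS) or a soy protein isolate (SPI) diet. They were taken by name from the table of expressed genes: the alpha, mu, pi, theta, kappa, omega and zeta glutathione S-transferases, the microsomal transferases, the glutathione peroxidases, the peroxiredoxins, every gene whose symbol begins with Txn, and RGD1307603, Gclc, Gclm, Gsr, Gss, Nqo1, Srxn1, Sod1, Sod2 and Cat, each with a mean of at least 5 over the 16 libraries. This gave 53 of the 9645 genes listed. Of these, 17 encode soluble transferases, 2 microsomal transferases, 4 enzymes of glutathione synthesis and recycling, 5 glutathione peroxidases, 6 peroxiredoxins and sulfiredoxin, 15 the thioredoxin system and proteins with thioredoxin-like domains, and 4 superoxide dismutases, catalase and Nqo1.

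Each diet had 8 libraries (here CAS 1 through 8 and SPI 1 through 8), taken as 8 rats per diet from the study's description. The rats were bought as young animals and housed singly with free access to food. The casein diet was the control, and the soy diet carried the isoflavones of its protein isolate. Both groups were of the obese Zucker strain, so no lean rat and no rat on another diet enters a comparison. Whole liver was used, and in such bulk RNA fewer cells of a type and less RNA per cell cannot be told apart. The levels given are normalized read counts, reads divided by 1 size factor per library, and they are not corrected for gene length.

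Glutathione is the main small thiol of the liver cell, built from glutamate, cysteine and glycine by glutamate-cysteine ligase and glutathione synthetase. Glutathione S-transferases join it to reactive compounds, glutathione peroxidases spend it on peroxides, and glutathione reductase returns the oxidized form with NADPH. The thioredoxin system works in parallel, with thioredoxin reductase passing electrons from NADPH to thioredoxin and on to the peroxiredoxins. Many of these genes carry an antioxidant response element, through which the transcription factor NRF2 acts, and some also respond to the aryl hydrocarbon receptor through a xenobiotic response element.

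Promoter sequence was taken from RefSeq (GRCr8), an assembly other than the one the authors mapped to, and covers the 250 bases before the gene start. The windows of RGD1307603 and of Gstp1, which lie next to each other on chromosome 1, are shown because 1 of the pair changed and the other did not pass the test, and that of Gstt3 because it also changed. RGD1307603 is an older name of Gstp3 in the reference. The capitals mark the core of the antioxidant response element, TGACNNNGC, and the core of the xenobiotic response element, GCGTG, on either strand. The windows are chr1:210787685-210787934 (minus strand), chr1:210769706-210769955 (minus strand) and chr20:12874368-12874617 (plus strand).
RGD1307603: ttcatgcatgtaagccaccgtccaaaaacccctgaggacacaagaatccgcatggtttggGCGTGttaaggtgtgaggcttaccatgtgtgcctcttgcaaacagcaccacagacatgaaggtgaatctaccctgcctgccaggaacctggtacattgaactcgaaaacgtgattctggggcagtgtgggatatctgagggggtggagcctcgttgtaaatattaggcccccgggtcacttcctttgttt
Gstp1: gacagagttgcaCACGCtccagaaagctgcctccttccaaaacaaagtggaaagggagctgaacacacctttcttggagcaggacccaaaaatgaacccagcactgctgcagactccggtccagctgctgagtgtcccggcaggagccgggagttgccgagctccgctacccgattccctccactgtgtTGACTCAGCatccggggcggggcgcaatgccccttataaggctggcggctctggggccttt
Gstt3: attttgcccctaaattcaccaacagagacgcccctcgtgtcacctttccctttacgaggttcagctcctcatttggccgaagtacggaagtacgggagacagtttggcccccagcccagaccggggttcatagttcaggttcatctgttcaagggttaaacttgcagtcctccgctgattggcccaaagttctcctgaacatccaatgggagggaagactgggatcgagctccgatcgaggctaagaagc

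The RGD1307603 window held 1 xenobiotic core and no antioxidant core, the Gstp1 window held both, with the antioxidant core overlapping the AP-1 core TGACTCA, and the Gstt3 window held neither. Of the 53 genes, 52 matched a RefSeq gene and 45 had a window. The antioxidant core was found in 9 of the 45 (20%), against 11.0% of the 27457 RefSeq genes with a window, and the xenobiotic core in 23 of the 45 (51.1%), against 28.4%. Those 27457 genes were not limited to genes expressed in these livers, so they are unlike the set, and the difference was not tested. A match describes letters in this window and is not a site in use. Gstm3.1 had no match and so no window.

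Of the 53 genes, 52 were tested between the diets with limma on quantile-normalized log2(value + 1), with p-values adjusted over all 8004 genes tested. One transferase gene, RGD1307603, rose in SPI-fed rats, and Gstm3.1 and Gstt3, also transferase genes, fell. None of the other 49 genes passed the adjusted threshold of 0.05 with limma or edgeR, and DESeq2 called 3 of them, Gsto1, Mgst1 and Nqo1, higher. The 1 gene higher compares with 1.97% of all genes tested, the 2 lower with 2.9%, and the 3 in either direction (5.77%) with 4.87%. RGD1307603 entered the set by its own name, with earlier results of these data known, so the share higher depends on that choice. DESeq2 called 6 of the 52 (11.5%), against 8.36% of all genes tested by it, and edgeR 3 (5.77%), against 5.4%. At an unadjusted p under 0.05 there were 9 genes (17.3%), against 18.8% of all genes. With limma and edgeR the shares called were near those of the table as a whole. The median log2 fold change of the 52 genes was -0.01, and that of all genes was 0.01. Gpx7 was too low to test, at 0.827 to 24.95 in CAS and 0 to 26.5 in SPI.

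**Figure D1:**
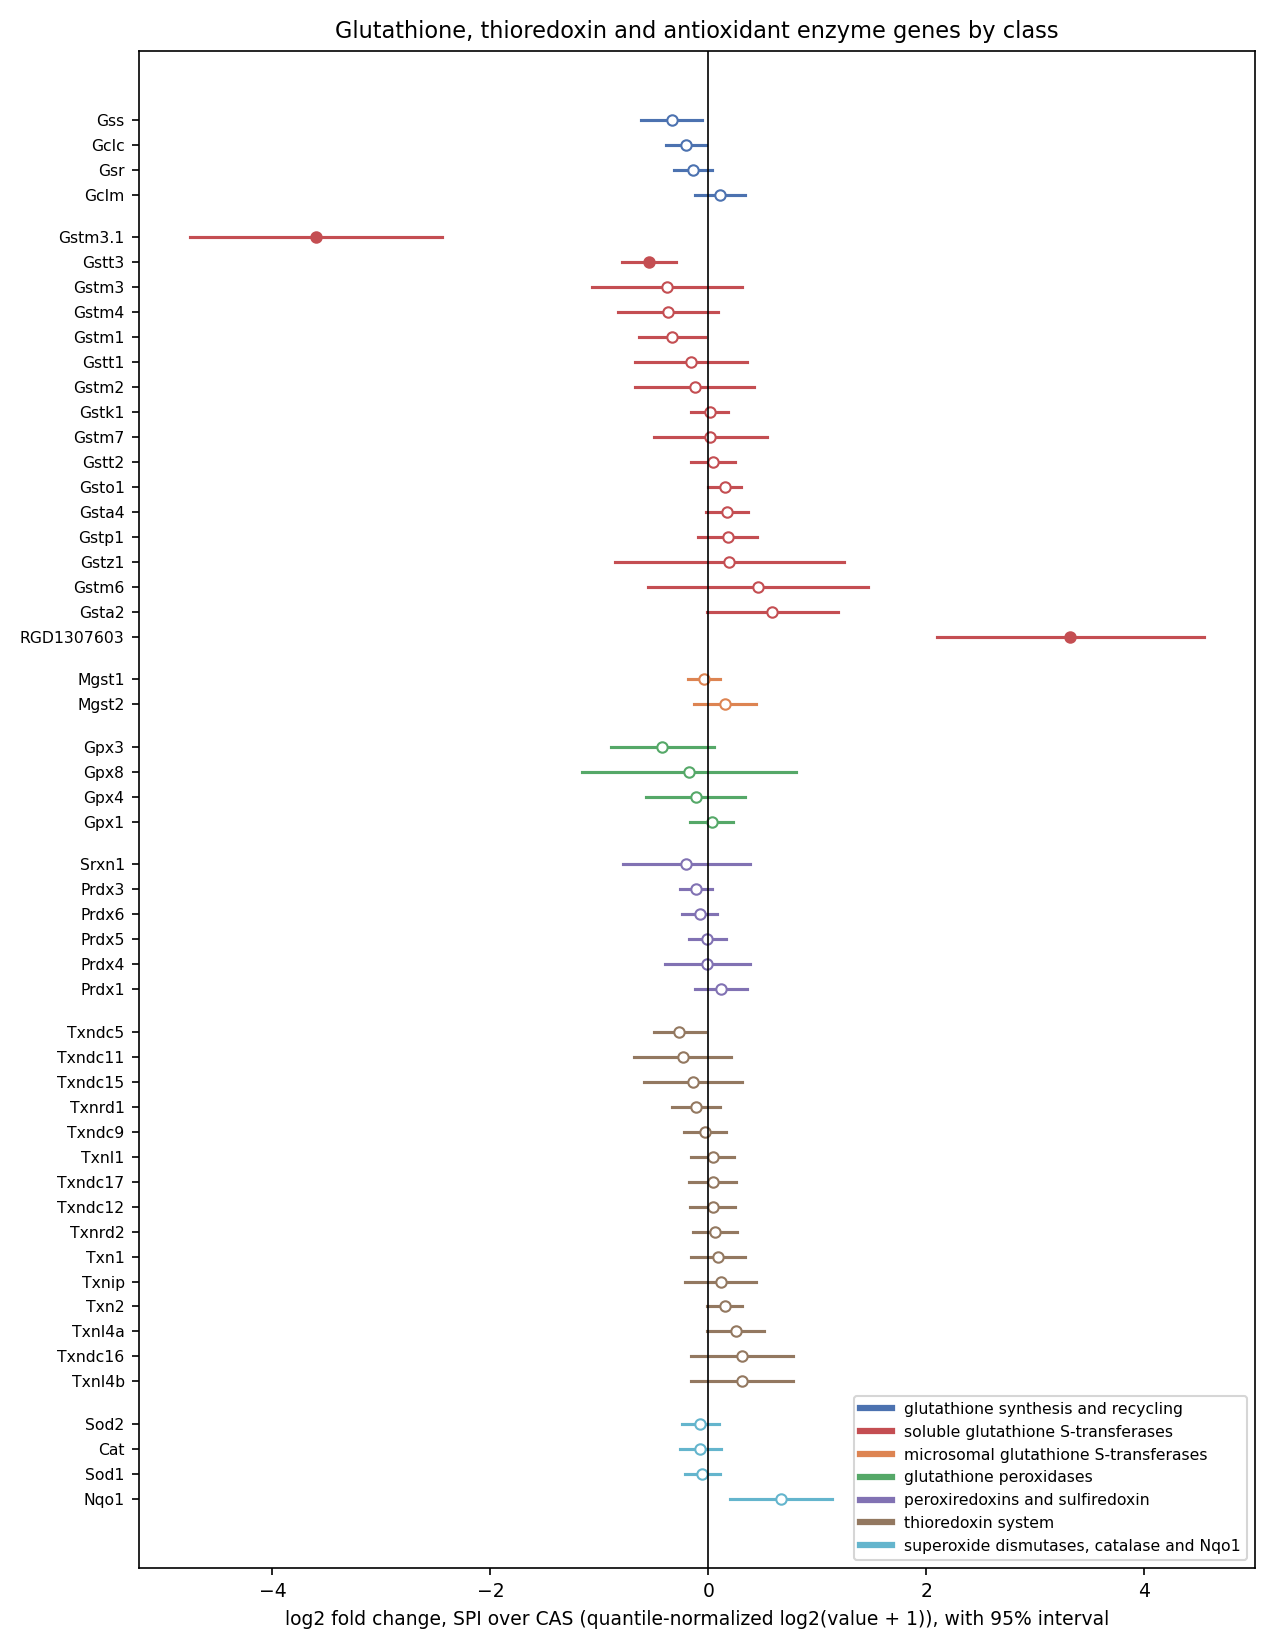
Log2 fold change of SPI over CAS (x axis) for each of the 52 genes tested, grouped by class in colour, with the 95% interval from limma as a line and filled points for an adjusted p under 0.05. Gstm3.1 at -3.60, Gstt3 at -0.55 and RGD1307603 at 3.32 are filled, and the 49 open points lie between -0.42 and 0.67; those of abundant genes depend on the scaling (Mgst1 at -0.04 here and 0.26 as deposited).

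Gstm3.1, a mu-class row, fell in SPI-fed rats. Its normalized read count in CAS 1 to CAS 8 was 738, 557, 1887, 156, 863, 140.0, 121 and 412. In SPI 1 to SPI 8 it was 95.9, 28.8, 27.0, 26.6, 28.7, 13.8, 32.7 and 38.5. Every SPI liver lay below every CAS liver, as in 0.55% of all genes tested, with CAS 4, CAS 6 and CAS 7 the lowest of the CAS livers and SPI 1 the highest of the SPI livers. Its log2 fold change, -3.60, had limma's standard error of 0.54 (95% interval -4.76 to -2.44, adjusted p = 0.00168 from limma). The same 3 CAS libraries stood apart over all genes, with first-component scores of 1.18 to 2.73 where the other CAS livers had -41.3 to -26.1 and the SPI livers 10.4 to 26.7. Without them the log2 fold change of Gstm3.1 was -4.53 (adjusted p = 1.98e-06 from limma). They hold its 3 lowest CAS values, so leaving them out had to widen its fold, and the calls over all genes went from 390 to 806.

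The name Gstm3.1 carries the suffix that the table gives to 11 rows, each of which has a row of the same name without it. Which mu-class locus it counts was not established, and mu-class genes are similar enough to share reads. The row named Gstm3 had 45.8 ± 21.4 (SD, n = 8) in CAS and 33.7 ± 14.6 (SD, n = 8) in SPI, with a log2 fold change of -0.38 (95% interval -1.06 to 0.31).

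**Figure D2:**
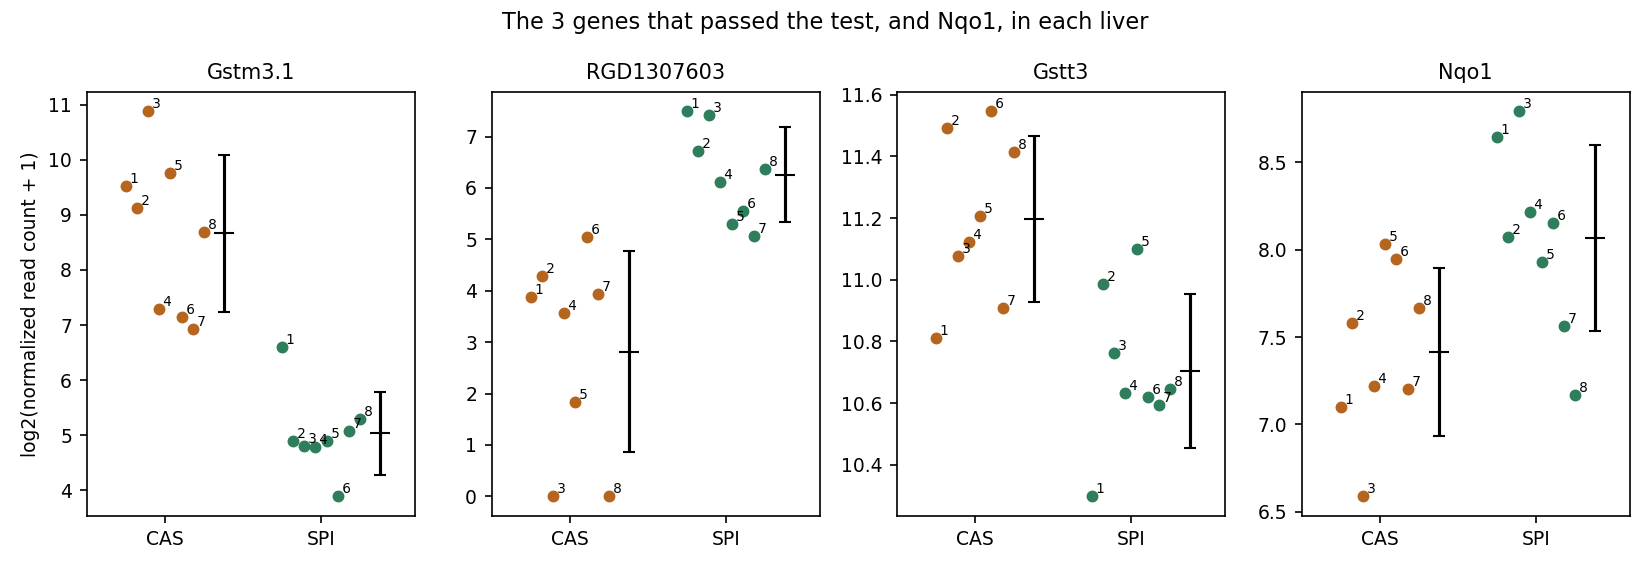
Log2(normalized read count + 1) of Gstm3.1, RGD1307603, Gstt3 and Nqo1 (y axis, a scale per panel) in each CAS and SPI liver, labelled by library number, with the mean and SD (n = 8) as bars. The diets do not overlap for Gstm3.1 and RGD1307603, with CAS 6 at 31.8 and SPI 7 at 32.7 the nearest pair for RGD1307603, and they overlap for Gstt3 and Nqo1.

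RGD1307603, a pi-class transferase gene, moved the other way. In CAS 1 to CAS 8 its normalized read count was 13.8, 18.6, 0, 10.9, 2.55, 31.8, 14.2 and 0. In SPI 1 to SPI 8 it was 179, 105, 170.3, 68.7, 38.6, 45.7, 32.7 and 81.1. Every SPI liver lay above every CAS liver, as in 0.35% of all genes tested, though CAS 6 and SPI 7 were less than 1 apart. The values rest on 102 reads over the CAS libraries and 656 over the SPI libraries, and CAS 3 and CAS 8 had no read. With all 8 SPI livers above the minimum of 10, the SPI livers alone let the gene pass the filter on low values. The log2 fold change was 3.32 (standard error 0.59, 95% interval 2.10 to 4.55, adjusted p = 0.00253 from limma). It moved to 2.33 with a pseudocount of 8 (adjusted p = 0.000719 from limma) and to 4.14 without CAS 4, CAS 6 and CAS 7 (adjusted p = 0.000245 from limma). CAS 6 was the highest CAS liver, at 31.8, so leaving it out widens the fold.

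Gstt3, a theta-class transferase gene, fell less. Its normalized read count ran from 1797 to 2990 with a median of 2296 in CAS, and from 1258 to 2192 with a median of 1594 in SPI. The diets overlapped, with CAS 1, CAS 3 and CAS 7 inside the SPI range and SPI 2 and SPI 5 inside the CAS range. The log2 fold change was -0.55 (standard error 0.12, 95% interval -0.79 to -0.30, adjusted p = 0.0094 from limma). Without the libraries numbered 2 and 8 of both diets it was -0.50 (adjusted p = 0.0619 from limma).

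Other genes of the same classes are given beside the called ones, chosen after their values were seen, and the difference between a called gene and its relatives was not tested. Gstp1, the neighbour of RGD1307603 on chromosome 1 and the pi-class gene known as a marker of preneoplastic foci in rat liver, had 216 to 447 (median 335) in CAS and 306 to 493 (median 366) in SPI. The diets overlapped, with a log2 fold change of 0.18 (95% interval -0.09 to 0.45). In the theta class, Gstt1, the neighbour of Gstt3 on chromosome 20, had -0.16 (95% interval -0.67 to 0.35) and Gstt2 had 0.04 (95% interval -0.16 to 0.25). The interval of Gstt1 overlapped that of Gstt3.

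The other mu-class rows did not pass the test. Gstm1, a main mu-class enzyme of rat liver, ranged from 2174 to 4641 with a median of 3169 in CAS and from 1950 to 3988 with a median of 2683 in SPI, and its log2 fold change was -0.33 (95% interval -0.63 to -0.03, adjusted p = 0.212 from limma), or -0.23 on the deposited scale (adjusted p = 0.395 from limma). Gstm2, Gstm4, Gstm6 and Gstm7 ran from -0.37 to 0.46. All 6 mu-class rows beside Gstm3.1 were uncalled by limma, by edgeR and by DESeq2, and 1 of them, Gstm1, had an unadjusted p under 0.05. Within the SPI group, Gstm7 had 210, 257, 217 and 245 in SPI 1, 2, 5 and 8 and 87.1 to 133 in the other SPI livers. Gstt1 had 184, 202 and 185 in SPI 1, 2 and 8 and 62.7 to 112 in the others.

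**Figure D3:**
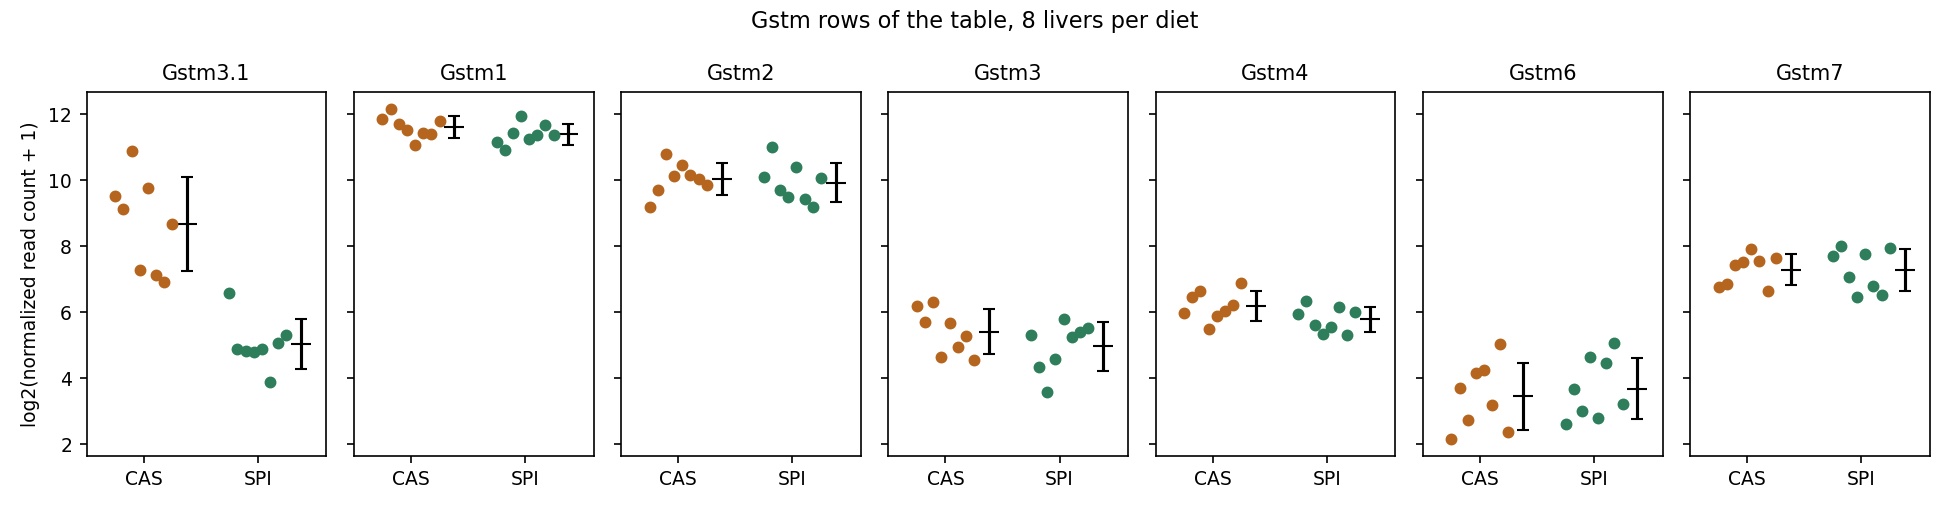
Log2(normalized read count + 1), on 1 y axis, of the 7 mu-class rows in each CAS (brown) and SPI (green) liver, with mean and SD (n = 8) as bars. Gstm3.1 spans 121 to 1887 in CAS and 13.8 to 95.9 in SPI, while the CAS and SPI points of the other 6 rows overlap.

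The alpha, kappa, omega and zeta transferases held no called gene in 5 tested with limma, 1 of them (Gsto1) at an unadjusted p under 0.05. Gsta2, an alpha-class enzyme, had 32.3 to 180 (median 109) in CAS and 99.2 to 222 (median 140.4) in SPI. The groups overlapped, with CAS 2 the lowest liver, and the log2 fold change was 0.59 (95% interval -0.01 to 1.19, adjusted p = 0.275 from limma). Without CAS 4, CAS 6 and CAS 7 it was 0.97 (adjusted p = 0.0379 from limma), and without CAS 2 it was 0.36 (adjusted p = 0.459 from limma). Leaving out both libraries numbered 2 and both numbered 8 gave 0.31 (adjusted p = 0.569 from limma). Gsto1, an omega-class enzyme with thiol transferase activity, had 2737 to 3403 (median 3234) in CAS and 3287 to 4395 (median 3773) in SPI. The SPI livers ran from inside the CAS range to above it. Its log2 fold change was 0.15 (95% interval 0.00 to 0.30, adjusted p = 0.261 from limma), and it was called higher with upper-quartile scaling, at 0.27 (adjusted p = 0.0486 from limma), and by DESeq2, at 0.26 (adjusted p = 0.033). edgeR gave 0.26 (adjusted p = 0.0547).

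Glutathione synthesis and recycling held no called gene among 4 tested with limma, edgeR or DESeq2, and 2 of them, Gss and Gclc, had an unadjusted p under 0.05. Gclc, the catalytic subunit of glutamate-cysteine ligase, had 3494 to 5147 (median 4631) in CAS and 3683 to 4923 (median 4211) in SPI, and a log2 fold change of -0.20 (95% interval -0.39 to -0.02, adjusted p = 0.219 from limma). On the deposited scale the Gclc value was -0.09 (adjusted p = 0.634 from limma). Gss, glutathione synthetase, had 1575 to 3314 (median 1923) in CAS, where CAS 8 was highest, and 1310 to 2337 (median 1770) in SPI. Its log2 fold change was -0.33 (95% interval -0.61 to -0.05, adjusted p = 0.170 from limma), and -0.27 on the deposited scale (adjusted p = 0.273 from limma). Gclm, the modifier subunit of the ligase, had 1254 to 2086 (median 1494) in CAS and 1426 to 2166 (median 1614) in SPI, and a log2 fold change of 0.10 (95% interval -0.13 to 0.33). Gsr, glutathione reductase, had 1541 to 2102 (median 1859) in CAS and 1421 to 1850.0 (median 1709) in SPI, and a log2 fold change of -0.14 (95% interval -0.32 to 0.03) after quantile normalization and -0.09 on the deposited scale. All 4 genes overlapped between diets.

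Among the remaining enzymes, Nqo1, a quinone reductase and a standard NRF2 target, had the smallest p below the 3 called genes. Its normalized read count ran from 95.1 to 261 with a median of 169 in CAS and from 143 to 443 with a median of 276 in SPI. SPI 1 and SPI 3 were the highest livers, at 400.0 and 443, while SPI 5, SPI 7 and SPI 8 lay within the CAS range, SPI 8 lowest at 143. The log2 fold change was 0.67 (standard error 0.23, 95% interval 0.20 to 1.13, adjusted p = 0.0969 from limma). It passed without SPI 8, at 0.79 (adjusted p = 0.0391 from limma), and by DESeq2, at 0.67 (adjusted p = 0.0373), and did not pass by edgeR, at 0.67 (adjusted p = 0.083).

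Glutathione peroxidases, peroxiredoxins and the thioredoxin system were described by intervals, since none passed. Of all 52 genes of the set, 32 (61.5%) had a 95% interval of the fold within 1.5-fold either way, against 44.5% of all genes tested. In the classes named here it was 2 of 4, 5 of 6 and 11 of 15. The genes compared were not matched by read count, and low genes such as Gpx8 (-1.16 to 0.81) had wide intervals. Peroxiredoxins and sulfiredoxin had 0 of 6 called by limma, edgeR and DESeq2, with 0 at an unadjusted p under 0.05. Prdx1, a cytosolic peroxiredoxin, had 1569 to 2587 (median 1872) in CAS and 1649 to 2947 (median 2113) in SPI, and a log2 fold change of 0.12 (95% interval -0.12 to 0.35). Srxn1, which restores overoxidized peroxiredoxins, had 24.8 to 63.0 (median 36.2) in CAS and 15.03 to 60.4 (median 30.6) in SPI, and a log2 fold change of -0.20 (95% interval -0.78 to 0.38). The Srxn1 interval was the widest of the class, and the diets overlapped for all 6 genes. Prdx6, which uses glutathione rather than thioredoxin, had 3498 to 4694 (median 3897) in CAS and 3746 to 4674 (median 3913) in SPI. Its log2 fold change was -0.08 (95% interval -0.24 to 0.08) after quantile normalization and 0.03 on the deposited scale. The mitochondrial Prdx3 had -0.11, Prdx4 of the endoplasmic reticulum -0.01 and Prdx5 -0.01 after quantile normalization and 0.10 on the deposited scale.

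The thioredoxin system had 0 of 15 genes called by limma, edgeR or DESeq2, and 1, Txndc5, at an unadjusted p under 0.05. Txndc5, a disulfide isomerase of the endoplasmic reticulum, had 1274 to 2281 (median 1591) in CAS and 1218 to 1774 (median 1332) in SPI. CAS 1 and CAS 2 were the highest livers, and the diets overlapped. Its log2 fold change was -0.26 (95% interval -0.50 to -0.03, adjusted p = 0.208 from limma), and it was called lower without CAS 4, CAS 6 and CAS 7, at -0.41 (adjusted p = 0.0238 from limma). CAS 6 and CAS 7 were the lowest CAS livers, at 1274 and 1309, so leaving them out widens the fold, while CAS 4 had 1635. Without the libraries numbered 2 and 8 the log2 fold change of Txndc5 was -0.12 (adjusted p = 0.656 from limma). Txn1, cytosolic thioredoxin, had 2014 to 3282 (median 2292) in CAS and 2111 to 3678 (median 2676) in SPI, and a log2 fold change of 0.09 (95% interval -0.16 to 0.33). Txnrd1, its reductase, had 1112 to 2002 (median 1546) in CAS and 1206 to 1792 (median 1457) in SPI, and a log2 fold change of -0.11 (95% interval -0.33 to 0.11). Txnip, an inhibitor of thioredoxin, had 435 to 995 (median 745) in CAS and 628 to 1076 (median 734) in SPI, and a log2 fold change of 0.11 (95% interval -0.22 to 0.44). The diets overlapped for each of these 3 genes. The other 11 genes of the class ranged from -0.23 to 0.31. Among them Txn2, the mitochondrial thioredoxin, had 0.15 (95% interval -0.01 to 0.31) and Txnrd2, its reductase, 0.06 (95% interval -0.14 to 0.26). Txnl4a and Txnl4b, which work in the spliceosome and not in peroxide removal, had 0.25 and 0.31.

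The glutathione peroxidases had 0 of 4 called by all 3 tools, with 0 at an unadjusted p under 0.05. Gpx1, the cytosolic selenoenzyme, had 20550.2 to 32529 (median 25117) in CAS and 26591 to 35220.0 (median 30914) in SPI, and a log2 fold change of 0.03 (95% interval -0.16 to 0.23) after quantile normalization and 0.30 on the deposited scale (adjusted p = 0.0778 from limma). Gpx4, which reduces lipid peroxides in membranes, had 55.1 to 163 (median 80.1) in CAS and 52.0 to 132 (median 71.2) in SPI, and a log2 fold change of -0.11 (95% interval -0.57 to 0.34). Gpx3, the secreted form, and Gpx8 of the endoplasmic reticulum had -0.42 (95% interval -0.90 to 0.05) and -0.18 (95% interval -1.16 to 0.81). The intervals of Gpx3 and Gpx8 reached folds past 1.5, and those of Gpx1 and Gpx4 did not.

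The abundant genes of the set depended on the scaling. Cat, catalase, had 49039.9 to 72646 (median 57534) in CAS and 51091 to 79517 (median 67158) in SPI. The diets overlapped, and its log2 fold change was -0.07 after quantile normalization and 0.17 on the deposited scale. Mgst1, a microsomal transferase that also reduces peroxides, had 31497 to 43016 (median 34223) in CAS and 36947 to 52087 (median 42702) in SPI. Its log2 fold change was -0.04 after quantile normalization (adjusted p = 0.836 from limma) and 0.26 on the deposited scale (adjusted p = 0.0531 from limma), and it was called higher with upper-quartile scaling (0.28, adjusted p = 0.0441 from limma) and by DESeq2 (0.26, adjusted p = 0.0354). Sod1, the cytosolic superoxide dismutase, had 15122 to 22488 (median 18673) in CAS and 18934 to 25976 (median 21029) in SPI, with -0.05 and 0.21 on these scales. Sod2, the mitochondrial one, had 2461 to 3209 (median 2614) in CAS and 2187 to 3479.9 (median 2839) in SPI, with -0.07 and 0.02. No direction is given for these genes. All 12 genes with the highest CAS counts had a higher value on the deposited scale than after quantile normalization, with medians of 0.13 and -0.045, while the median of all genes was -0.0042 and 0.0092.

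**Figure D4:**
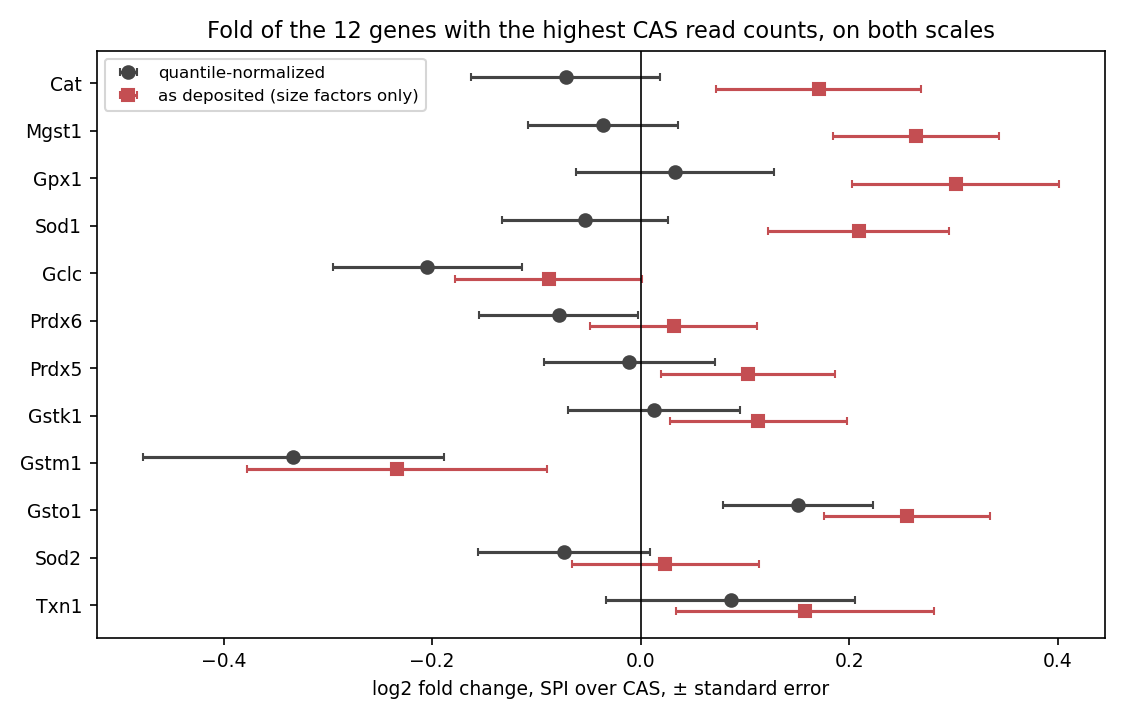
Log2 fold change of SPI over CAS with its standard error (x axis) for the 12 genes with the highest CAS read counts, after quantile normalization (circles) and as deposited (squares). The squares lie to the right of the circles for all 12 genes, and Cat moves from -0.07 to 0.17, so its direction depends on the scaling.

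The livers of a diet differed among themselves in these genes by a median coefficient of variation of 18.6% in CAS (3.75% to 96.5%) and 19.4% in SPI (6.60% to 88.5%).

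Outside the family, lists of linked genes were counted in the same way. The NRF2 regulators had 0 of 3 tested genes called by limma, edgeR or DESeq2, with 0 at an unadjusted p under 0.05, and Nfe2l2, which encodes NRF2, had a log2 fold change of -0.22 (95% interval -1.06 to 0.62). The NRF2-linked genes had 0 of 16 called by limma, 6 (37.5%) at an unadjusted p under 0.05, against 18.8% of all genes, 2 (12.5%) called by edgeR, against 5.4%, and 3 (18.8%) by DESeq2, against 8.36%. Among the 16, Hmox1, heme oxygenase, had 0.38 (adjusted p = 0.0708 from limma), Aldh1a1, a retinal dehydrogenase, had -0.66 (adjusted p = 0.0854 from limma) and Fth1, ferritin heavy chain, had -0.27 (adjusted p = 0.0574 from limma) after quantile normalization and -0.0096 on the deposited scale (adjusted p = 0.964 from limma). Ftl1 and Ugdh were called higher by edgeR and by DESeq2, and Hmox1 by DESeq2 also. Of the 6 at an unadjusted p under 0.05, Hmox1 and Ugdh were higher, and Aldh1a1, Fth1, Pgd (-0.50) and Taldo1 (-0.17) were lower, after quantile normalization. The median of the 16 was 0.015, beside 0.0092 for all genes. NADPH supply (5 tested, median -0.08), glutathione breakdown, export and salvage (8, median -0.04), glutaredoxins and glyoxalases with Gfpt1 (7, median -0.11) and selenoprotein synthesis (6, median 0.13) had 0 genes called by limma, edgeR or DESeq2, with 1, 2, 0 and 1 at an unadjusted p under 0.05. Gfpt1 is neither a glutaredoxin nor a glyoxalase, and its own log2 fold change of -0.11 is the median of those 7. The 9 set genes with an antioxidant core in the window included none called by limma, edgeR or DESeq2 and 1 at an unadjusted p under 0.05, with log2 fold changes of -0.26 to 0.19. Genes with the element outside the window may be missing from the 9, so a window without a match does not show that a gene lacks it. Nqo1, a standard NRF2 target that DESeq2 called higher, had no antioxidant core in its window and is not among the 9. Of the 22 tested with a xenobiotic core, limma and edgeR called 1, RGD1307603, and DESeq2 called RGD1307603 and Nqo1. Over all genes limma called 4.87%, edgeR 5.4% and DESeq2 8.36%. An unadjusted p under 0.05 was found for 5 of the 22, against 18.8% of all genes.

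Cyp1a2, a cytochrome P450 controlled by the aryl hydrocarbon receptor, rose, with 2055 ± 617 (SD, n = 8) in CAS and 4710 ± 1042 (SD, n = 8) in SPI, 1.15 on the log2 scale (adjusted p = 0.00138 from limma). It was 1 of 2 such genes tested. Of 12 genes linked to CAR and PXR, among them Nr1i2, which encodes PXR, 2 rose. These were Cyp3a9 at 2.23 (adjusted p = 0.00321 from limma) and Ugt2b1, a glucuronosyltransferase, at 0.53 (adjusted p = 0.00644 from limma). By edgeR and by DESeq2, 4 of the 12 (33.3%) were called. Over all genes tested, limma called 4.87%, edgeR 5.4% and DESeq2 8.36%, to be set beside the list counts of this paragraph. The lists are short, and none was tested as a set. Sesn3, a stress-response sestrin, fell by 0.64 on the log2 scale (adjusted p = 0.00388 from limma). It was the 1 gene called by limma among 6 tested sestrins and methionine sulfoxide reductases, whose median was 0.19. The other sestrins, Sesn1 and Sesn2, had 0.59 and 0.23. The reductases Msra, Msrb1 and Msrb2 had 0.14, 0.41 (adjusted p = 0.123 from limma) and -0.17. Mt2A, a metallothionein, rose at 2.44 (adjusted p = 0.0379 from limma), with 0 to 23.4 in CAS and 4.08 to 81.1 in SPI. It was the 1 gene that limma called among 7 tested on a list of metallothioneins and metal-binding proteins. Mt1, the other metallothionein tested, had 0.92 (adjusted p = 0.248 from limma). Sesn3 and Cyp3a9 were not called without the libraries numbered 2 and 8, and the call of Mt2A was lost in 14 of 27 alternatives, including edgeR. Bhmt, which remethylates homocysteine, was the 1 gene called among 7 listed under cysteine supply. It had -0.36 (adjusted p = 0.0323 from limma) after quantile normalization and -0.08 on the deposited scale, where it was not called. Without quantile normalization, with upper-quartile scaling, by edgeR and by DESeq2, the calls of that list were 2 others, Ahcy and Cdo1, both higher. After quantile normalization they had 0.37 (adjusted p = 0.142 from limma) and 0.27 (adjusted p = 0.0571 from limma). Cdo1, though on that list, encodes an enzyme that uses cysteine up rather than supplying it.

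The libraries held 14901365 to 21632979 reads. Of 10 hepatocyte markers 5 had a row, Alb among them with at least 2790904 in every CAS liver and 3305839 in every SPI liver. Alb and Tf keep 1 rank each in every library, so quantile normalization sets their difference to 0 and limma cannot call them. The summed neutrophil markers, of which 3 of 10 had a row, ran from 113 to 2194 in CAS and from 66.4 to 383 in SPI. Nearly all of that sum was Lcn2, which is also an acute phase gene, at 110 to 2147 in CAS and 50.0 to 370 in SPI, while Fcnb had 3.05 to 47.1 and 0 to 37.1. Macrophage markers summed, with 10 of 13 in the table, to 6380 to 9745 in CAS and 5372 to 9237 in SPI. Of 6 stellate cell and fibroblast markers tested, 4 (Col1a1, Col3a1, Reln and Rgs5) had an unadjusted p under 0.05 (66.7%, against 18.8% of all genes). Of the 6, 0 were called by limma, edgeR or DESeq2. Their median log2 fold change was -0.75, beside 0.0092 for all genes. The sum over the 7 such markers with a row ran from 3755 to 5869 in CAS and from 3265 to 5598 in SPI. Most of that sum was Col3a1, at 3488 to 5375 in CAS and 3029 to 5108 in SPI. None of the 8 cell marker lists held a gene that limma called. edgeR called Lcn2, DESeq2 called Lcn2 and Cd163, and 8 markers had an unadjusted p under 0.05 with limma. The part of these cell types in the results was not tested.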

How the data were processed

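RNA of 16 livers was sequenced by the study, and the deposited table gives 9645 genes. Its signal values, 16 columns, are deposited reads per gene over a size factor (1 for each library), and whole reads were recovered with 100% of low values whole within 0.05. The log2 fold changes and standard errors, the score column (a Wald statistic) and the p-value columns are the authors' own comparison and were not used. The submitters' processing notes name Rnor_6.0, DESeq2 and FastQC, and the study's methods name another aligner and assembly version.

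Here log2(value + 1) was quantile-normalized and tested with limma 3.58.1 (trend, robust, two-sided) over 8004 genes with at least 10 in at least 8 libraries, Benjamini-Hochberg adjusted. The steps were checked on simulated data. P-values measure the spread between libraries, taken as 1 rat each from the study. The members and lists were chosen with earlier results of these data known. The genes named were those called, the 6 next by p and 20 fixed ones, and of each list those called and up to 3 more. Other members given single values, and other list genes named, were added after their values were seen. The alternatives were other scalings, pseudocounts and filters, edgeR 4.0.16 (TMM) and DESeq2 1.42.0 on whole reads, a replicate block, library weights, omitting libraries 2 and 8 of both diets (their lane codes do not follow their sheet numbers as the others do) or CAS 4, CAS 6 and CAS 7, and leaving out each library, under R 4.3.3. Depth, 14901365 to 21632979 reads, limits low genes most.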

Additional observations from a re-analysis of the deposited data

Results flagged for a closer look

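Among 106 groups of 8 libraries (each gene in each diet), 4 held a library far from the rest, where chance gives about 1 in 20. Mgst1 was 52087 in SPI 8, with the next SPI liver at 43248. Gsr was 1421 in SPI 1, with the next SPI liver at 1657. Txndc17, a thioredoxin-like protein, was 1028 in CAS 2, with the next CAS liver at 1223. Gstz1, the zeta-class transferase of tyrosine breakdown, was 0 in CAS 3, with the next CAS liver at 12.9.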

How the results depend on the processing

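Over 28 alternatives, the 3 called genes kept their direction in 83 of 83 values and stayed past the threshold in 82, Gstt3 without the libraries numbered 2 and 8 being the exception. The count of genes higher in SPI, 1 as reported, was 3 with upper-quartile scaling (Gsto1 and Mgst1 added), 4 by DESeq2 (Gsto1, Mgst1 and Nqo1 added), 2 without CAS 4, CAS 6 and CAS 7 (Gsta2 added) and 0 with a filter at 50, where RGD1307603 was not tested. Over all genes the count higher in SPI went from 158 to 254 with upper-quartile scaling, 308 by DESeq2, 369 without CAS 4, CAS 6 and CAS 7 and 109 without SPI 8. Leaving out single libraries gave 1 to 2 higher, with 2 only without SPI 8 (Nqo1 added), and 2 to 2 lower. The count lower in SPI was 1 without the libraries numbered 2 and 8, where that over all genes went from 232 to 67. With the replicate number as a block, 1 gene was higher and 2 were lower, while over all genes the counts went from 158 and 232 to 97 and 149; libraries of the same number correlated at -0.0950 to 0.0682, and 0 of 8 did so best with its own number. The named genes that were not called changed sign in 29 of 615 values. Without quantile normalization, with upper-quartile scaling, by edgeR and by DESeq2 respectively, Prdx6 had 0.031, 0.046, 0.032 and 0.027, Sod1 0.21, 0.22, 0.21 and 0.21, Sod2 0.024, 0.038, 0.030 and 0.026, Cat 0.17, 0.18, 0.17 and 0.17, and Mgst1 0.26, 0.28, 0.27 and 0.26. Without the libraries numbered 2 and 8, Txn1 was at -0.048 and Prdx1 at -0.053. Gpx1 was at -0.0051 with library weights. Leaving out single libraries gave Gpx1 -0.010 (without CAS 5) to 0.096, Gpx4 -0.21 to 0.011 (without CAS 5) and Mgst1 -0.062 to 0.0015 (without SPI 3). Without CAS 4, CAS 6 and CAS 7, Mgst1 was at 0.027 and Txnip at -0.0078. The cause of these changes was not tested. Depth limits RGD1307603, whose CAS level rests on 102 reads.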

Other observations

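Genes of liver zones and of the acute phase were counted in the same fit, in which limma called 4.87% of all genes tested. By edgeR 5.4% and by DESeq2 8.36% of all genes were called. The lists are short, and none was tested as a set. Of 8 pericentral genes, Cyp1a2 and Cyp7a1, the rate-limiting enzyme of bile acid synthesis, rose, the latter at 1.21 on the log2 scale (adjusted p = 0.0155 from limma, not called with the replicate block). Of 8 periportal genes, Hal, which breaks down histidine, rose at 1.29 (adjusted p = 0.00724 from limma, not called without the libraries numbered 2 and 8). Cdh1, E-cadherin, was lower at -0.76 (adjusted p = 0.00249 from limma) and was called in all 28 alternatives. Aldh1b1 was at -0.98 (adjusted p = 0.0444 from limma, lost in 16 of 28 alternatives), and Arg1, arginase, at -0.34 after quantile normalization (adjusted p = 0.0275 from limma) and -0.03 on the deposited scale, where it was not called. Hsd17b13, a lipid droplet protein, had 0.23 (adjusted p = 0.160 from limma) and was called higher by edgeR and DESeq2.

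Of 14 acute phase genes, Fgg, a fibrinogen chain, rose at 0.30 (adjusted p = 0.0367 from limma, lost in 12 of 28 alternatives), and Lbp, which binds lipopolysaccharide, fell, at -1.23 (adjusted p = 0.0429 from limma, lost in 15 of 28). Lbp had 5652 ± 2889 (SD, n = 8) in CAS and 2330 ± 451 (SD, n = 8) in SPI. edgeR and DESeq2 each called 5 of the 14, adding Crp at 0.10 (adjusted p = 0.582 from limma), Fga, another fibrinogen chain, at 0.27 (adjusted p = 0.142 from limma), and Lcn2 at -2.33 (adjusted p = 0.0731 from limma).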
